A study of Mus musculus with 6 samples.

Results

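The genes described here are 10 members of Nodal and bone morphogenetic protein (BMP) signalling, measured by RNA sequencing in mouse blastocysts. They were chosen by name as the rows whose Ensembl identifier maps to Nodal, Gdf3, Bmp4, Tdgf1, Lefty1, Lefty2, Bmpr1a, Acvr2b, Id1 or Id2. All 10 were found among the 55774 genes of the deposited table. Wild-type (WT) embryos of ICR females aged 6 to 8 weeks, superovulated with gonadotropins, were cultured from the 2-cell stage for 75 h in CZB medium, and both groups received extracellular vesicles from human Fallopian tubes. In the oEV-EMT group the vesicles came from women with endometriosis. In the oEV-ctrl group the labels name women with uterine fibroids as the donors, whereas the methods of the study name another gynaecological condition. Each group has 3 libraries of 10 pooled blastocysts, and the study did not sequence blastocysts cultured without vesicles. The labels do not say whether the 3 pools of a group came from separate cultures or vesicle donors, so that p-values measure only the spread between these pools.

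Nodal and BMPs are secreted ligands of the TGF-beta superfamily. They assemble pairs of type I and type II receptor kinases, and Nodal-type signals then pass through SMAD2 and SMAD3 while BMP signals pass through SMAD1, SMAD5 and SMAD9, each together with SMAD4. In the mouse blastocyst, Nodal, its co-receptor and its Lefty inhibitors are known from the inner cell mass and the epiblast, the lineage that forms the embryo proper. Id genes are classical targets of BMP signalling, and Id2 is also an early gene of the trophectoderm, the outer lineage that forms the placenta.

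Between the groups, the ligands Gdf3 and Bmp4 and the target Id1 had higher values in all oEV-EMT libraries than in the oEV-ctrl libraries, with group means 2.18, 1.80 and 2.54 times as high. The type II receptor Acvr2b was lower in every oEV-EMT library, at 0.531 times the oEV-ctrl mean. The values of the other 6 genes overlapped between the groups. No gene passed the threshold of the study, an adjusted p-value of at most 0.05 with a log2 fold change of at least 1 in size, among the 9 of these genes that were tested or among all 11924 genes tested (0% called, limma with Benjamini-Hochberg adjustment, smallest adjusted p 0.0934). The study applied this threshold with DESeq2 and reported differentially expressed genes, so the outcome here is that of another method. Without adjustment, 4 of the 9 tested genes had a p of at most 0.05, as had 1831 of all genes (15.4%). Of these 4, 3 were higher in oEV-EMT, beside 12.8% of all genes, and 1 was lower, beside 2.55%. Groups that did not overlap were found in 22.4% of all tested genes, with oEV-EMT above in 18.1% and below in 4.34%.

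Values are FPKM, a fragment count set relative to transcript length and library size, so that levels can be set side by side between genes. They were compared as log2(FPKM + 1) for genes that reached 1 FPKM in 3 or more of the 6 libraries, and a fold change on this scale understates the change of a low gene. The depth of the libraries, derived from steps between low values, was 0.483 to 1.00 relative to library oEV-EMT 1, the deepest, and both groups held deeper and shallower libraries. The unannotated entry new_gene48 held 15.3% to 31.5% of the summed FPKM, most in oEV-ctrl 1. The median log2 fold change of all tested genes was 0.17 in the deposited values and 0.01 after median-of-ratios scaling, and the split of genes with a p of at most 0.05 went from 1527 higher and 304 lower to 780 and 766. The median over the 9 tested genes of the pair of pathways was 0.52 as deposited and 0.38 after this scaling. Gdf3, Bmp4, Id1 and Acvr2b kept their direction and a p of at most 0.05 under each of the scalings tried.

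**Figure D1:**
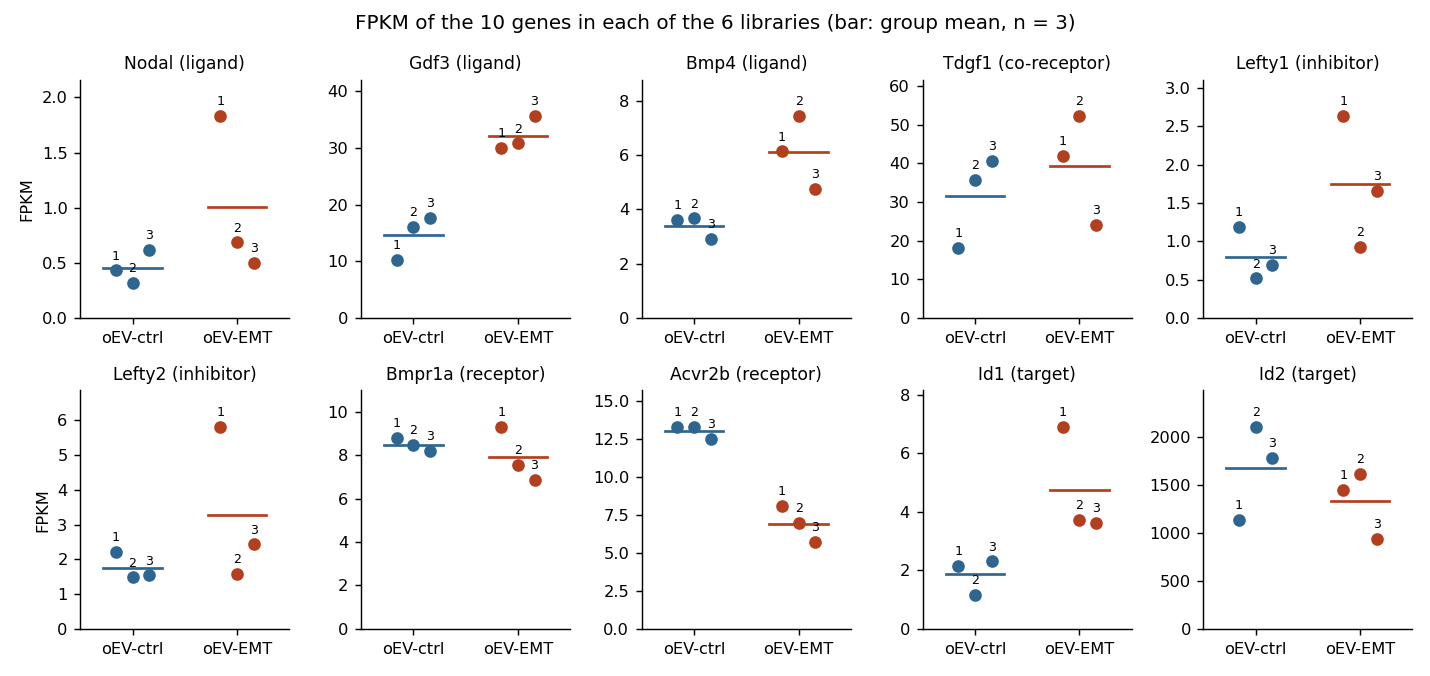
FPKM (vertical axes, each from 0) of the 10 genes in the 3 oEV-ctrl and the 3 oEV-EMT libraries, with the library number at each point and a bar at the group mean. The oEV-EMT points of Gdf3, Bmp4 and Id1 all lie above the oEV-ctrl points, those of Acvr2b all lie below, and the points of the other 6 genes overlap.

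Among the ligands, Nodal was the lowest of all 10 genes. Nodal (ENSMUSG00000037171, 3 exons on chr10:61417972-61425338, plus strand, GENCODE M21 on GRCm38, as for all positions here) gives the pathway its name. Its values were 1.83, 0.687 and 0.501 FPKM in oEV-EMT libraries 1, 2 and 3 and 0.433, 0.323 and 0.615 FPKM in oEV-ctrl libraries 1, 2 and 3. A single library, oEV-EMT 1, reached 1 FPKM, the groups overlapped, and Nodal was therefore not tested.

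Gdf3 encodes a ligand that uses the same co-receptor and receptors as Nodal (ENSMUSG00000030117, 2 exons on chr6:122605403-122610087, minus strand). It reached 30.0, 30.8 and 35.6 FPKM with oEV-EMT and 10.3, 16.1 and 17.7 FPKM with oEV-ctrl. The lowest oEV-EMT library was thus well above the highest oEV-ctrl library. The log2 fold change was 1.10 ± 0.24 (SE, n = 3 per group, 95% interval 0.57 to 1.64), with an adjusted p of 0.118 by limma. Its p ranked 91 among the 11924 genes, so that 0.763% had one as small. Of its 50-base stretches, 3.24% also occur in 88 other genes, whose summed FPKM reached 1860.

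Bmp4 encodes a BMP ligand made by inner cells of the blastocyst and, after implantation, by the tissue next to the epiblast (ENSMUSG00000021835, 4 exons on chr14:46383520-46390669, minus strand). It measured 6.13, 7.43 and 4.74 FPKM with oEV-EMT and 3.6, 3.67 and 2.90 FPKM with oEV-ctrl. The groups did not overlap, but the lowest oEV-EMT value was nearer to the oEV-ctrl values than in Gdf3. On the log2(FPKM + 1) scale the difference was 0.68 ± 0.23 (SE, n = 3 per group, 95% interval 0.17 to 1.19), with an adjusted p of 0.221 (limma). Its unadjusted p was at most 0.05 with all libraries, and 0.0645 without oEV-EMT 2 or 0.0629 without oEV-ctrl 3 (limma). Bmp4 shares 89 exon bases with Gm15217 on the opposite strand, which stayed at or under 0.0515 FPKM. Of its 50-base stretches, 2.54% occur in 511 other genes, whose summed FPKM reached 3129, and whether reads were counted by strand is not given in the sources used here.

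The 250 bases before the annotated start of Bmp4 are shown because Bmp4 is one of the genes whose groups did not overlap, and they are set beside those of the receptor Acvr2b, which differed in the other direction. The Bmp4 window is chr14:46390670-46390919, minus strand, and the Acvr2b window is the 190 bases at chr9:119401928-119402117, plus strand, both from RefSeq on GRCm38.p6, 5′ to 3′. Capitals mark the GC box, the letters GGGCGG on either strand.
Bmp4: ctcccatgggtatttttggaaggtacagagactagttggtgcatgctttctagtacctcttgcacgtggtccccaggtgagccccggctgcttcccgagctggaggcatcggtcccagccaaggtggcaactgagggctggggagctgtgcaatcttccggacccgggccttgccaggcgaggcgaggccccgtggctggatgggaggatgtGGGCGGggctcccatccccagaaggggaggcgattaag
Acvr2b: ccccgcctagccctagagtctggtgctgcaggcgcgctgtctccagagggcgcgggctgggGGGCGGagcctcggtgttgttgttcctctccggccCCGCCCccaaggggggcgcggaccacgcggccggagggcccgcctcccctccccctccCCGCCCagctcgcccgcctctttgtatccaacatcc
The Bmp4 window held 1 such match, where 32.7% of windows of this length before 32851 RefSeq starts hold at least 1, and the Acvr2b window held 3, where 22.8% of windows of its length hold at least 1. Their GC content was 63.2% and 74.7%, against medians of 52.4% and 51.6% for windows of the same lengths. The E-box CANNTG, which can share end bases with a GC box, occurred at 3 places for Bmp4 and at none for Acvr2b (66.2% and 57.3% of windows), and the BMP-SMAD motif GGCGCC in neither (9.59% and 6.61%). A match of letters is a description of the window and not a bound site. RefSeq windows outside the annotated gene were also found for Nodal and Tdgf1. Those of Bmpr1a and Id2 lay inside the gene and were not used, and Lefty1, Lefty2, Gdf3 and Id1 were not matched.

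Tdgf1 encodes Cripto, the membrane-anchored co-receptor that Nodal and Gdf3 need (ENSMUSG00000032494, up to 7 exons on chr9:110939603-110946158, minus strand). Its values were 41.9, 52.2 and 24.0 FPKM with oEV-EMT and 18.2, 35.7 and 40.6 FPKM with oEV-ctrl. Each group held high and low libraries, and the ranges overlapped over most of their width. The log2 fold change of 0.32 (95% interval -0.48 to 1.12) had an adjusted p of 0.698 (limma). Without oEV-ctrl 1, its lowest library, the difference was -0.02. The processed copy Tdgf1-ps1 shares 8.86% of the 50-base stretches of Tdgf1 and reached up to 15.2 FPKM, so that fragments could have been split between them.

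Lefty1 and Lefty2 encode secreted inhibitors that bind Nodal and its co-receptor, and both are themselves induced by Nodal signalling. They are neighbours on chromosome 1 (Lefty1, ENSMUSG00000038793, chr1:180935022-180938400; Lefty2, ENSMUSG00000066652, chr1:180893108-180899103, both plus strand with up to 4 exons). Lefty1 measured 2.63, 0.932 and 1.66 FPKM with oEV-EMT and 1.19, 0.518 and 0.696 FPKM with oEV-ctrl. Lefty2 measured 5.81, 1.58 and 2.43 FPKM with oEV-EMT and 2.22, 1.48 and 1.54 FPKM with oEV-ctrl. For both, oEV-EMT 1 was the highest library and oEV-ctrl 2 the lowest, and oEV-EMT 2 lay among the oEV-ctrl libraries. The log2 fold change of Lefty1 was 0.58 (95% interval -0.01 to 1.16, adjusted p = 0.331, limma), and 0.35 without oEV-EMT 1. For Lefty2 it was 0.52 (95% interval -0.22 to 1.27, adjusted p = 0.479, limma), and 0.12 without oEV-EMT 1. Fragments may have been split between these paralogs, since 17.9% of the 50-base stretches of Lefty1 occur in Lefty2 and 12% of those of Lefty2 in Lefty1.

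The members of a pair were also compared inside each library. Of the summed FPKM of both Lefty genes, Lefty1 made up 31.2%, 37.1% and 40.7% with oEV-EMT and 34.9%, 25.8% and 31.1% with oEV-ctrl. The means were 36.3% ± 4.8 and 30.6% ± 4.56 (SD, n = 3 each), and the difference of 5.69 percentage points had an exact two-sided permutation p of 0.2 (adjusted over 3 ratios, 0.300). It was 3.31 percentage points without oEV-ctrl 2, 3.52 without oEV-EMT 3 and 8.27 without oEV-EMT 1. Lefty2 was thus the more abundant of the pair in every library. The log2 ratio of Nodal to both Lefty genes, each side with a pseudocount of 1, was -1.74, -1.06 and -1.76 with oEV-EMT and -1.62, -1.18 and -1.0 with oEV-ctrl. The groups overlapped, with a difference of -0.25 (exact permutation p = 0.400, adjusted p = 0.400), and with a pseudocount of 0.1 the difference was 0.02. With 1 library left out it lay between -0.48 (without oEV-EMT 2) and -0.12 (without oEV-ctrl 3). In 3 libraries against 3 the smallest exact p is 0.1.

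Bmpr1a encodes a type I receptor for BMP ligands (ENSMUSG00000021796, up to 13 exons on chr14:34410734-34503341, minus strand). It measured 9.30, 7.53 and 6.87 FPKM with oEV-EMT and 8.79, 8.45 and 8.19 FPKM with oEV-ctrl. Its values were the most even of the 10 genes, with the highest library at 1.35 times the lowest. The log2 fold change of -0.10 (95% interval -0.57 to 0.37) had an adjusted p of 0.849 (limma). The interval leaves room for a difference in either direction, so that equal levels are not shown. An antisense gene, Gm17110, shares 290 exon bases with Bmpr1a and stayed at or under 0.286 FPKM.

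Acvr2b encodes a type II receptor bound by activins, Nodal and related ligands (ENSMUSG00000061393, up to 11 exons on chr9:119402118-119434995, plus strand). Its values were 8.12, 6.96 and 5.70 FPKM with oEV-EMT and 13.3, 13.3 and 12.5 FPKM with oEV-ctrl. The oEV-ctrl libraries lay close together and far above the highest oEV-EMT library. Its log2 fold change was -0.84 ± 0.21 (SE, n = 3 per group, 95% interval -1.31 to -0.36), with an adjusted p of 0.164 (limma). Only 1.17% of tested genes had a lower log2 fold change. Acvr2b shares no 50-base stretch with another gene, and its difference lay between -1.03 and -0.72 under 16 alternatives, each with a p of at most 0.0120.

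Id1 and Id2 encode helix-loop-helix proteins without a DNA-binding region, which hold back other helix-loop-helix factors. Id1 (ENSMUSG00000042745, 2 exons on chr2:152736251-152737410, plus strand) measured 6.91, 3.74 and 3.62 FPKM with oEV-EMT and 2.16, 1.15 and 2.31 FPKM with oEV-ctrl. The groups did not overlap, and oEV-EMT 1 stood apart from the other two libraries of its group. The log2 fold change was 0.98 ± 0.28 (SE, n = 3 per group, 95% interval 0.36 to 1.61), with an adjusted p of 0.174 (limma), and it was 0.73 without oEV-EMT 1. Id2 (ENSMUSG00000020644, up to 4 exons on chr12:25093799-25097140, minus strand) measured 1446, 1614 and 932 FPKM with oEV-EMT and 1137, 2102 and 1782 FPKM with oEV-ctrl. Its groups overlapped, with a log2 fold change of -0.32 (95% interval -0.94 to 0.29, adjusted p = 0.608, limma). This value was -0.09 without oEV-EMT 3 and -0.58 without oEV-ctrl 1.

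The pair of Id targets thus differed in opposite directions by their means, and their ratio was compared inside each library. The log2 ratio of Id1 to Id2, each with a pseudocount of 1, was -7.52, -8.41 and -7.66 with oEV-EMT and -8.49, -9.94 and -9.07 with oEV-ctrl. All oEV-EMT libraries lay above all oEV-ctrl libraries, narrowly so for oEV-EMT 2 and oEV-ctrl 1. The means were -7.86 ± 0.48 and -9.17 ± 0.73 (SD, n = 3 each), and the difference of 1.30 had the smallest exact permutation p that the design allows, 0.1 (adjusted over 3 ratios, 0.300). With a pseudocount of 0.1 the difference was 1.62, and it was 0.92 without oEV-ctrl 2. Id2 was the most abundant of the 10 genes, and the tested genes whose pattern over the 6 libraries was most like it were AC165327.2 (Pearson r 0.991), Rpl30 (0.988) and Phldb2 (0.984), on log2(FPKM + 1) less the median of each library. These correlations are a description over 6 libraries that share their depth with Id2, and 24 genes reached an r of 0.95.

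**Figure D2:**
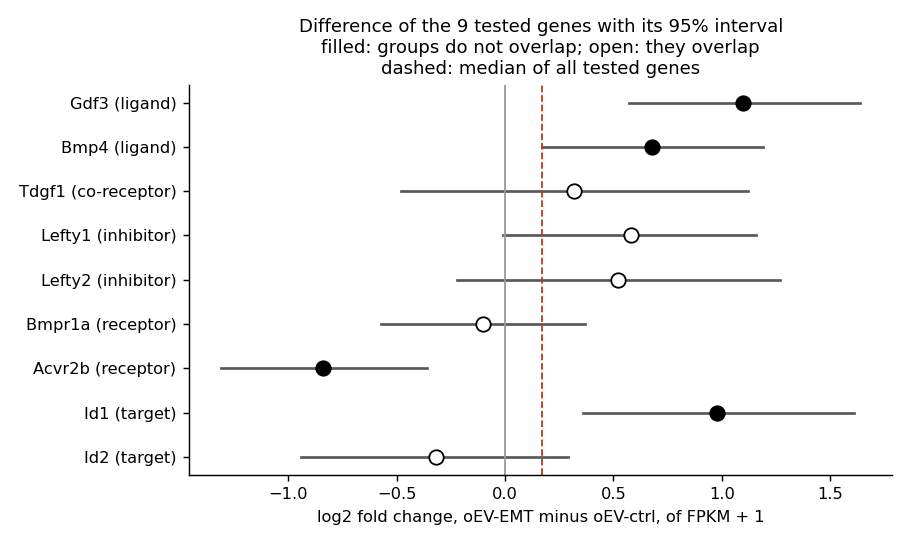
Log2 fold change of FPKM + 1 (horizontal axis, oEV-EMT minus oEV-ctrl) of the 9 tested genes with 95% intervals, n = 3 libraries per group. The intervals of Gdf3, Bmp4 and Id1 lie above 0 and that of Acvr2b below 0, while the other 5 cross it, that of Lefty1 by 0.01.

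By mean FPKM over the 6 libraries the order was Id2 (1502), Tdgf1 (35.4), Gdf3 (23.4), Acvr2b (9.99), Bmpr1a (8.19), Bmp4 (4.75), Id1 (3.32), Lefty2 (2.51), Lefty1 (1.27) and Nodal (0.731). Id2 was above 99.1% of tested genes and apart from all others. Each of the other neighbours in this order had overlapping ranges, although Bmpr1a exceeded Bmp4, Lefty2 exceeded Lefty1 and Lefty1 exceeded Nodal in 6 of 6 libraries. Acvr2b exceeded Bmpr1a in 3 of 6 libraries, which were the oEV-ctrl libraries, and lay below it in every oEV-EMT library. Library oEV-EMT 1, the deepest, held the highest value of 5 of the 10 genes, and 37.4% of all tested genes were also highest there. The part of depth in this was not tested. The lowest value of 4 of the 10 genes was in oEV-ctrl 2.

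**Figure D3:**
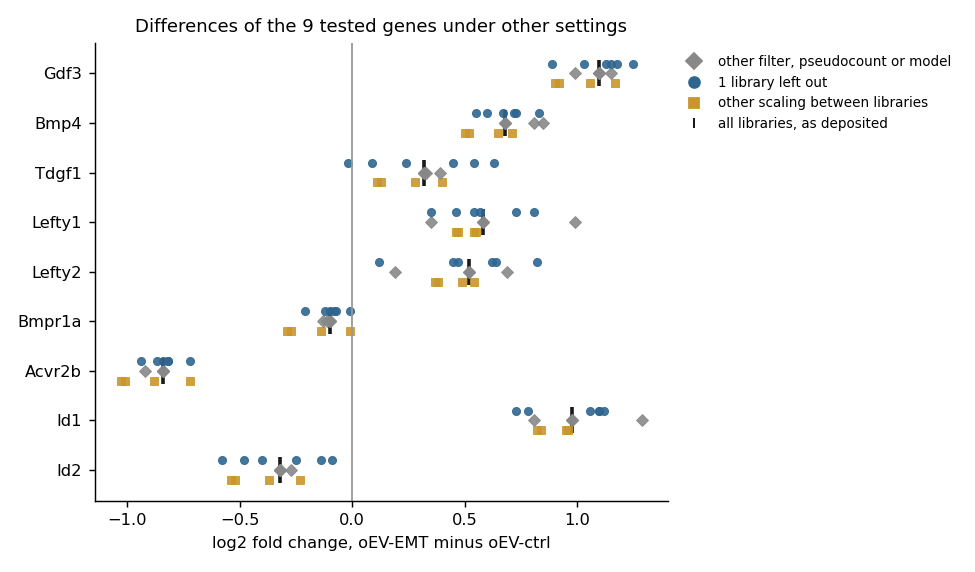
Log2 fold changes (horizontal axis, oEV-EMT minus oEV-ctrl) of the 9 tested genes with all libraries as deposited (bars) and with 1 library left out, another scaling, or another filter, pseudocount or model (points). Gdf3 stays between 0.89 and 1.25, Acvr2b between -1.03 and -0.72, Id1 between 0.73 and 1.29 and Bmp4 between 0.50 and 0.85, whereas Tdgf1 reaches -0.02.

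The other genes of these pathways were taken as 73 genes in 7 lists by role, of which 34 passed the filter on low values. With a p of at most 0.05, 6 of the 34 were higher in oEV-EMT and 0 lower, none of them with an adjusted p of at most 0.05 (limma), beside 12.8% and 2.55% of all tested genes. After median-of-ratios or upper quartile scaling, 5 were higher and 1 lower. Beside these stood 780 higher and 766 lower of all tested genes with the former, and 717 and 797 with the latter. As deposited, the median log2 fold change of the 34 genes was 0.17, the same as over all tested genes. Of the 16 other ligands, 1 was tested, the stress-induced Gdf15, at 1.44, 1.84 and 1.67 FPKM with oEV-EMT and 1.48, 0.946 and 1.01 FPKM with oEV-ctrl (log2 fold change 0.31, adjusted p = 0.488, limma). The remaining 15 ligands stayed under the filter, 14 of them under 1 FPKM in every library. With Nodal under the filter as well, Gdf3, Bmp4 and Gdf15 were the ligands of these lists that could be tested.

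Of 14 co-receptors and extracellular inhibitors, 5 were tested and 1 had a p of at most 0.05. This was Dand5, a secreted Nodal inhibitor, at 2.19, 3.0 and 2.80 FPKM with oEV-EMT and 1.04, 1.41 and 1.33 FPKM with oEV-ctrl (log2 fold change 0.69, adjusted p = 0.183, limma). Its groups did not overlap. Cfc1, the other co-receptor of the Cripto family, was the most abundant of the list, at 18.8, 31.5 and 27.5 FPKM with oEV-EMT and 24.1, 36.8 and 29.0 FPKM with oEV-ctrl (log2 fold change -0.21, adjusted p = 0.717, limma). Among the proprotein convertases, which cut ligand precursors, 2 of 4 were tested. Pcsk6 was even, with 16.2, 15.0 and 12 FPKM against 15.0, 14.2 and 13.1 FPKM (log2 fold change 0.02, adjusted p = 0.972, limma). Pcsk7 measured 4.38, 1.58 and 1.42 FPKM against 0.548, 0.824 and 1.42 FPKM (log2 fold change 0.77, adjusted p = 0.293, limma), and 0.40 without oEV-EMT 1, with an unadjusted p of up to 0.127 with 1 library left out. Its lowest oEV-EMT and highest oEV-ctrl value were equal at 3 significant digits, and it shares 415 exon bases with Rnf214 on the opposite strand.

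Of 11 other receptors, 4 were tested, and none had a p of at most 0.05. The type II receptor Bmpr2 had the highest mean and, like Acvr2b, groups that did not overlap with oEV-EMT below, at 1.68, 1.42 and 1.68 FPKM against 2.18, 2.14 and 1.90 FPKM (log2 fold change -0.24, adjusted p = 0.574, limma). The groups of another type II receptor, Acvr2a, named after its values were seen, overlapped (log2 fold change -0.12, adjusted p = 0.807, limma). Of 13 SMADs and partners, 11 were tested and 2 had a p of at most 0.05. Foxh1, the DNA-binding partner of SMAD2 in Nodal responses, measured 14.9, 7.74 and 6.02 FPKM with oEV-EMT and 3.63, 1.96 and 4.78 FPKM with oEV-ctrl. All oEV-EMT values were the higher ones, and the log2 fold change of 1.21 (adjusted p = 0.175, limma) was 0.87 without oEV-EMT 1. Smad2, the signal carrier of the Nodal branch, measured 12, 8.79 and 12.7 FPKM with oEV-EMT and 2.89, 6.79 and 7.0 FPKM with oEV-ctrl. Its log2 fold change was 0.95 (adjusted p = 0.207, limma) and 0.61 without oEV-ctrl 1, its lowest library. The corepressor Tgif1 was the most abundant of this list, at 97.9, 66.3 and 89.9 FPKM against 58.2, 53.8 and 71.3 FPKM (log2 fold change 0.46, adjusted p = 0.358, limma). Smad4, named after its values were seen, was the other pathway gene with all oEV-EMT values below, at 7.57, 7.71 and 7.78 FPKM against 9.15, 10.3 and 8.25 FPKM (log2 fold change -0.23, adjusted p = 0.616, limma). Over the 7 lists, 9 of the 34 tested genes had groups that did not overlap with oEV-EMT above, and 2 with oEV-EMT below. Among all tested genes these shares were 18.1% and 4.34%.

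Inside the cell, 5 of 6 inhibitors were tested and 1 had a p of at most 0.05. This was Fkbp1a, which keeps type I receptors inactive without ligand, at 65.4, 109 and 58.2 FPKM with oEV-EMT and 33.2, 34.2 and 53.2 FPKM with oEV-ctrl (log2 fold change 0.91, adjusted p = 0.195, limma). Of 9 other targets, 6 were tested and 1, again an Id gene, had a p of at most 0.05, beside 15.4% of all tested genes. Id3 measured 25.5, 34.1 and 24.4 FPKM with oEV-EMT and 18.1, 13.3 and 20.1 FPKM with oEV-ctrl (log2 fold change 0.68, adjusted p = 0.232, limma). Id1 and Id3 were both higher in every oEV-EMT library, while Id2 was not. Id4, named after its values were seen, stayed under the filter and was not tested. It measured 0.218, 0.133 and 0.0764 FPKM with oEV-EMT and 0.0702, 0.0659 and 0.0603 FPKM with oEV-ctrl. Without 1 of the libraries in turn, the p of Id3 reached 0.0745, and under another scaling 0.0644.

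**Figure D4:**
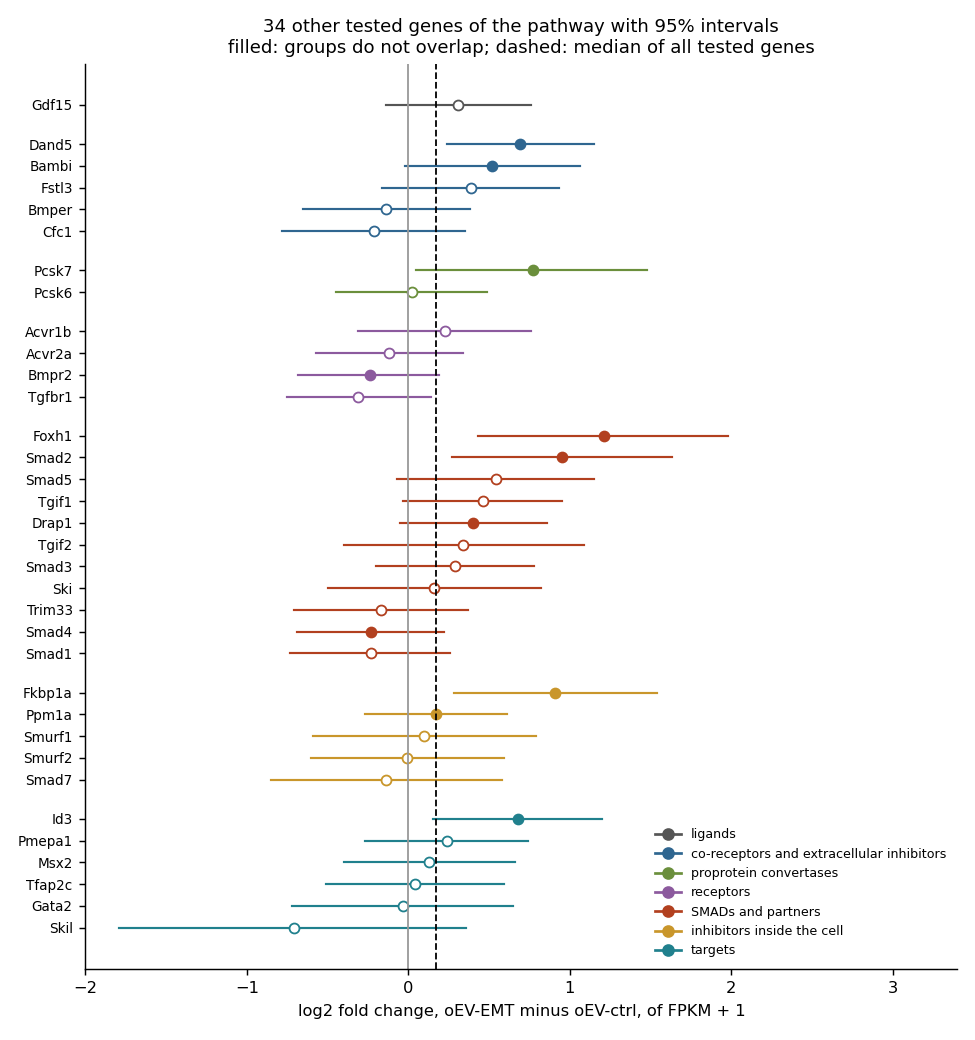
Log2 fold change of FPKM + 1 (horizontal axis, oEV-EMT minus oEV-ctrl) with 95% intervals for the 34 tested pathway genes, coloured by list, n = 3 libraries per group. Foxh1 at 1.21 is farthest to the right and Skil at -0.71 farthest to the left, the latter at -0.12 without oEV-ctrl 1, and 6 intervals lie wholly above 0.

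A blastocyst holds epiblast, trophectoderm and primitive endoderm, and in RNA of whole embryos fewer cells of a type and less RNA per cell cannot be told apart. The label was checked against marker lists, and markers of all 3 lineages were present, with 12 of 12 epiblast, 11 of 14 trophectoderm and 12 of 12 primitive endoderm genes passing the filter. Of the 12 epiblast markers, 5 were higher and 1 lower in oEV-EMT with a p of at most 0.05, beside 12.8% and 2.55% of all tested genes. Their median log2 fold change was 0.45, against 0.52 for the Nodal and BMP genes and 0.17 for all genes. Nanog and Pou5f1, which maintain the pluripotent state, averaged 51.8 ± 5.09 and 21 ± 4.85 FPKM with oEV-EMT and 25.4 ± 12.3 and 10.4 ± 3.39 FPKM with oEV-ctrl (SD, n = 3 each). Nanog had a log2 fold change of 1.11, and 0.71 without oEV-ctrl 1. In the same direction were Fgf4 (log2 fold change 0.99, and 0.62 without oEV-EMT 1), Dppa4 (0.82) and Utf1 (1.83, the smallest adjusted p of the list at 0.101, limma). Only 6 of the 12 epiblast markers lay above the median of all genes, and the other 6 held Zfp42 (-0.71), Sox2 (-0.32), Esrrb (-0.06), Prdm14 (-0.02) and Klf2 (0.07), named after their values were seen. Dppa5a, the most abundant epiblast marker, was lower (-0.64) at a p of at most 0.05, and with it the summed FPKM of the list, 10247 to 12292 with oEV-EMT and 15333 to 20399 with oEV-ctrl. Without oEV-EMT 1 the epiblast median was 0.17 and that of the Nodal and BMP genes 0.24.

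The trophectoderm list had a median log2 fold change of -0.02, with Elf5 higher (0.67) and Tspan8 (-0.49) and Dppa1 (-0.55), the most abundant, lower at a p of at most 0.05. That is 1 higher and 2 lower of 11 tested markers, beside 12.8% and 2.55% of all tested genes. None of these 3 kept such a p under every omission of a library, with p up to 0.138 for Elf5, 0.204 for Tspan8 and 0.162 for Dppa1, nor under every scaling, with p up to 0.144, 0.119 and 0.0979 (limma). The summed FPKM of the list were 6128 to 8580 with oEV-EMT and 8697 to 9779 with oEV-ctrl. The primitive endoderm list had a median of 0.20. At a p of at most 0.05, 2 of its 12 markers were higher and 0 lower, beside 12.8% and 2.55% of all tested genes. These were Gata4 (0.82) and Sox17 (0.95, with a p of up to 0.141 with 1 library left out). Dab2, the most abundant, was at -0.26, and the list summed to 212 to 428 FPKM against 253 to 352 FPKM. None of the lineage markers had an adjusted p of at most 0.05. Of 12 markers of cumulus and oviduct cells, 11 stayed under 1 FPKM in every library and Amh, Fshr, Ptx3 and Foxj1 were at 0. Only Vim, which many cell types express, was tested (0.83), at 9.89, 6.49 and 6.62 FPKM with oEV-EMT and 3.36, 3.77 and 4.26 FPKM with oEV-ctrl. The list summed to 7.05 to 10.7 FPKM with oEV-EMT and 3.71 to 4.56 FPKM with oEV-ctrl, most of it Vim. None of the other 11 genes exceeded 0.344 FPKM. The 10 oocyte markers summed to 5.15 to 7.24 FPKM and 2.72 to 3.48 FPKM, with Oosp1 at 0, Zp2 the most abundant (0.50) and Zp3 higher at a p of at most 0.05 (0.79). The part of the epiblast, cumulus, oviduct and oocyte markers in the differences of the Nodal and BMP genes was not tested.

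**Figure D5:**
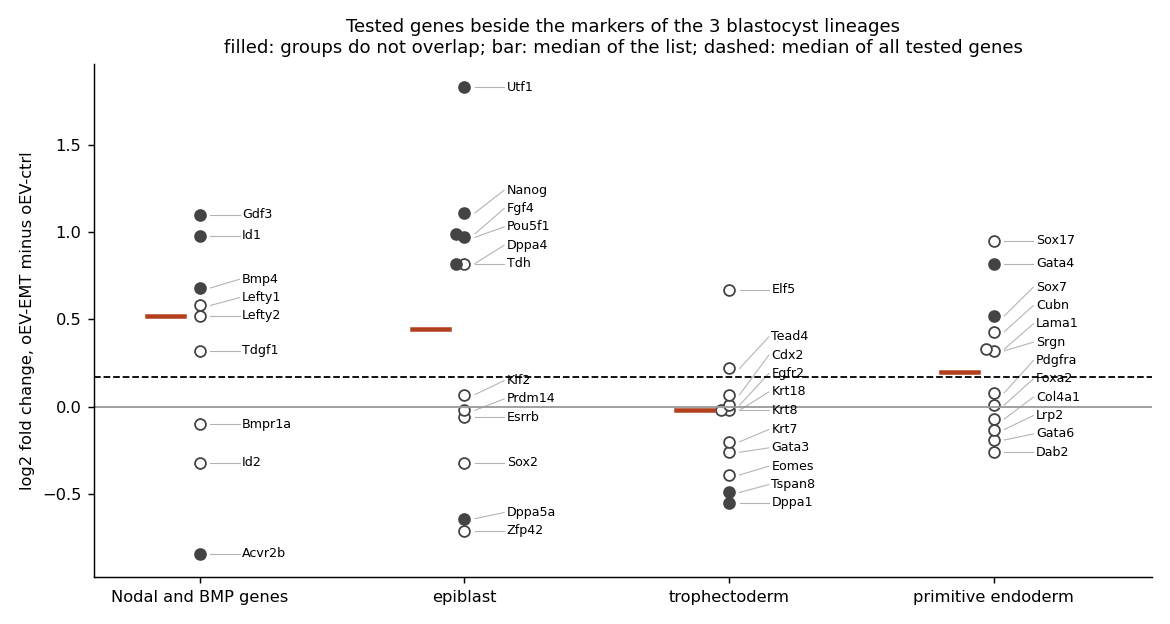
Log2 fold change of FPKM + 1 (vertical axis, oEV-EMT minus oEV-ctrl) of the 9 tested Nodal and BMP genes and of the tested markers of each blastocyst lineage, 1 point per gene, with a bar at each median and open points where the groups overlap. The bars of the Nodal and BMP genes (0.52) and of the epiblast (0.45) lie above the dashed median of all tested genes (0.17), and that of the trophectoderm (-0.02) lies below it.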

How the data were processed

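RNA of 6 pools of 10 blastocysts was sequenced by the authors after selection of polyadenylated RNA with oligo(dT) and TruSeq library preparation, and transcripts were assembled with StringTie. The submitters' processing notes name mm10, and the aligner is not given in the sources used here. The authors deposited one expression value per gene and library, called TPM in the methods. Since the sums per library ran from 1293175 to 1551567, the deposited values were treated as FPKM.

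The 10 genes and all gene lists were chosen with earlier results of these data known. The log2(FPKM + 1) values of 11924 genes with an FPKM of 1 or more in at least 3 libraries were fitted with limma 3.58.1 (R 4.3.3, trended and robust variance, two-sided), without a block, with Benjamini-Hochberg adjustment over all of them. Ratios within a library were compared by exact permutation over 20 splits. Named were the 10 genes, in each list the tested gene with the highest mean, up to 12 other pathway genes with the smallest p of at most 0.05, markers with a p of at most 0.05, and the 3 genes most like the most abundant member. Symbols, positions and identical 50-base stretches came from GENCODE M21, in which 55141 of 55487 identifiers were matched. FPKM keep no read totals, so no counting interval was computed. No library repeated another: across genes, r was 0.956 to 0.982 within groups and 0.954 to 0.974 between them. Alternatives covered scaling, filter, pseudocount, variance model, library weights, a block by replicate number and the omission of single libraries. Plots were made in matplotlib 3.10.9 (Python 3.11.15).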

Additional observations from a re-analysis of the deposited data

How the results depend on the processing

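The count of genes past both thresholds, 0 in the values as deposited, was 104 with library weights, 21 with a replicate block and 0 to 17 with 1 library left out, 4 without oEV-EMT 1, 1 without oEV-EMT 3 and 17 without oEV-ctrl 3. With library weights Gdf3 passed the adjusted p but not the fold change threshold (log2 fold change 0.99, adjusted p = 0.0499, limma, range over its 16 alternatives 0.0499 to 0.609). In that fit 151 of the 11924 genes passed the adjusted p threshold, against 0 as deposited. An unadjusted p of at most 0.05 was found in 23.4% of genes with library weights, against 15.4% as deposited. The median log2 fold change of the tested Nodal and BMP genes was 0.35 with library weights, 0.24 to 0.64 with 1 library left out, and -0.10 with a mean FPKM of at least 5, a filter that leaves 5 of them. This filter also leaves 2 genes with a p of at most 0.05, beside 18.1% of all genes it keeps. It leaves 2 whose groups do not overlap, for which the share over all genes was not computed. With 1 library left out, 4 to 7 genes had groups that did not overlap, 7 without oEV-ctrl 1. A group with 1 library fewer separates more easily, and the share over all genes was not computed for these omissions. Tdgf1 ranged from -0.02 to 0.63 with 1 library left out, the sign changing without oEV-ctrl 1, as it did for the log2 ratio of Nodal to both Lefty genes with a pseudocount of 0.1 (0.02); the cause was not tested. Without the filter on low values, Nodal had a log2 fold change of 0.41 (adjusted p = 0.714, limma). Scaling to the total without new_gene48 was chosen after seeing the data and kept 4 genes with a p of at most 0.05, beside 14.1% of all tested genes.

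The labels do not say whether libraries with the same replicate number belong together. Same-numbered libraries deviated together with r of 0.119, -0.0442 and 0.0388, and not every library correlated best with its own number. So few pairs cannot show whether the numbers pair the libraries. With the replicate block, 5 of the 9 tested genes had a p of at most 0.05 (limma), Lefty1 beside the 4 without the block. Over all tested genes the share in this fit was 13.6%. Under the block the ratios, 5.69 percentage points, -0.25 and 1.30, could reach no exact p below 0.25. Depth limits the low genes Nodal, Lefty1 and Id1 the most, and no number of fragments behind them could be given.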
